A study of Mus musculus with 4 samples.

Results

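Peaks of Musashi-1 (Msi1) CLIP-seq were examined at the loci of 4 mouse genes whose proteins serve the endoplasmic reticulum: Ssr3, Hspa5, Hsp90b1 and Canx. The genes were chosen by the peaks called on them in these same lists, so the numbers of peaks below describe the loci and support no test. In build mm9 the loci were Ssr3 at chr3:65183500-65196500 (minus strand, 13 kb), Hspa5 at chr2:34627400-34632100 (plus strand, 4.7 kb), Hsp90b1 at chr10:86153500-86168500 (minus strand, 15 kb) and Canx at chr11:50107000-50139500 (minus strand, 32.5 kb). They held 118 same-strand peaks of the 240811 peaks in 4 lists. In CLIP-seq, ultraviolet light fixes RNA to bound protein, an antibody pulls the protein down, and the RNA held to it is sequenced. The wild-type group was 2 libraries from intestinal crypts of control mice that received no doxycycline. The TRE-Msi1 group was 2 libraries from all intestinal epithelial cells of TRE-Msi1 mice, in which doxycycline switches on an Msi1 transgene, given doxycycline for 24 h. All 4 were precipitated with an antibody to Msi1, and the sources used here do not name the activator of the transgene or the cells it is active in.

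Proteins that leave the cell or sit in its membranes are threaded into the endoplasmic reticulum while they are made, and chaperones inside that compartment fold them. Ssr3 encodes a subunit of the translocon-associated protein complex at the channel through which the chains enter. Hspa5 encodes BiP, the Hsp70 chaperone of the lumen and a sensor partner of the unfolded protein response, and Hsp90b1 encodes endoplasmin (GRP94), the Hsp90 chaperone of the same compartment. Canx encodes calnexin, a membrane-bound lectin that holds newly made glycoproteins until they are folded. Msi1 is an RNA-binding protein of stem and progenitor cells, known to bind short motifs with a UAG core, often in the untranslated end of mRNAs. The intestinal epithelium secretes much of what it makes, so these proteins are part of its ordinary work.

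Apart from their peaks, these genes can be compared in their promoters, where the endoplasmic reticulum stress response element (CCAAT, 9 bases, CCACG) is a known site of regulation by the unfolded protein response. The stretches below are from RefSeq's promoter table (build GRCm38.p6, 250 bases before to 50 after the start, 1 entry for each of the 4 genes). Capitals mark CCAAT and CCACG of the element, or CCAAT alone in Ssr3, and each is printed 5′ to 3′ on the strand of the gene.
Hspa5, chr2:34772005-34772063, plus strand: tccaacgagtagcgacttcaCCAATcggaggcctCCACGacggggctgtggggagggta
Hsp90b1, chr10:86705618-86705676, minus strand: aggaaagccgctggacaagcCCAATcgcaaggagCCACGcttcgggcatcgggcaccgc
Canx, chr11:50325780-50325838, minus strand: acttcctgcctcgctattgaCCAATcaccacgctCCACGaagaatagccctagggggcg
Ssr3, chr3:65392640-65392724, minus strand: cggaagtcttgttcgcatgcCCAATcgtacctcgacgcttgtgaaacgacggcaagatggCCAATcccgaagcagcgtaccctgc
The element was searched on both strands with every base of CCAAT and CCACG required. It was present in the promoters of Hspa5, Hsp90b1 and Canx, and in 0.119% of all 32851 promoters of the table. Its first base lay 65 bases before the start in Hspa5, 145 in Canx and 212 in Hsp90b1, where a further match lay on the opposite strand. In the Ssr3 window CCAAT occurred 2 times on the strand of the gene and the whole element 0 times. CCAAT alone was in 37.4% and CCACG alone in 32.8% of all promoters. A match is a description of letters, and the CLIP-seq peaks measure RNA and not these windows.

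The peak lists themselves differed greatly. They held 4863 and 5578 peaks in the wild-type and 189594 and 40776 in the TRE-Msi1 replicates 1 and 2, and the read depth behind them is unknown. TRE-Msi1 replicate 1 stood apart, with 40-bp peaks against 74 or 75 bp, scores with 1 decimal and 70.8% of its peaks on the plus strand against 50.9 to 51.5% in the others. Genotype, doxycycline and the cells taken changed together, so they cannot be told apart. In bulk cells, fewer cells of a type and less RNA per cell cannot be told apart either, nor can an abundant mRNA and a strongly bound one, since no input or control library is among the 4. The labels' epithelial cell type was not checked against marker genes, because an mm9 annotation was not used here. The RefSeq table (GRCm38.p6) listed all 4 symbols, each on the same chromosome as its locus. There, 1 other gene overlapped a member, Rabepk, on the strand opposite Hspa5.

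Each of the 4 loci carried more called peaks in the TRE-Msi1 than in the wild-type libraries. Together the loci held 22 and 7 same-strand peaks in the wild-type replicates 1 and 2, and 54 and 35 in the TRE-Msi1 replicates. The means were 14.5 ± 10.6 (SD, n = 2) and 44.5 ± 13.4 (SD, n = 2), and both TRE-Msi1 libraries lay above both wild-type libraries at each gene. On the scale of log2(peaks + 0.5) the difference was 1.76, with a pooled SD between replicates of 0.85. It was 0.97 without wild-type replicate 2, which had the fewest peaks of the 4 libraries in these loci, and 2.55 without wild-type replicate 1.

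Scaled by the length of the lists, the order turned around. For every 10000 peaks of its list, wild-type replicate 1 had 45.2 in the 4 loci, wild-type replicate 2 had 12.5, TRE-Msi1 replicate 2 had 8.58 and TRE-Msi1 replicate 1 had 2.85. Both wild-type libraries were thus above both TRE-Msi1 libraries, a log2 difference of -2.32 with a pooled SD of 1.20. The same order held at Ssr3, Hsp90b1 and Canx singly, but not at Hspa5, where wild-type replicate 2 had 0. It was -1.43 without wild-type replicate 1 and -3.21 without wild-type replicate 2. The lists lengthened more than the number of peaks in these loci did. When every list was reduced to its 4863 highest-ranked peaks, 22 and 6 peaks were left in the wild-type replicates, and 4 and 26 in the TRE-Msi1 replicates. The groups then overlapped and the log2 difference was -0.15. In TRE-Msi1 replicate 1 the cut fell among peaks of equal score, which were ordered by chromosome name. That order left out the Ssr3 peaks scored 4.7, which stood at rows 4828 and 4829 of the list. The count of 4 and the sign of -0.15 thus rest on the order of ties. No test was made of these differences, and 2 against 2 libraries cannot go below p = 0.333 in a two-sided exact permutation test.

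**Figure D1:**
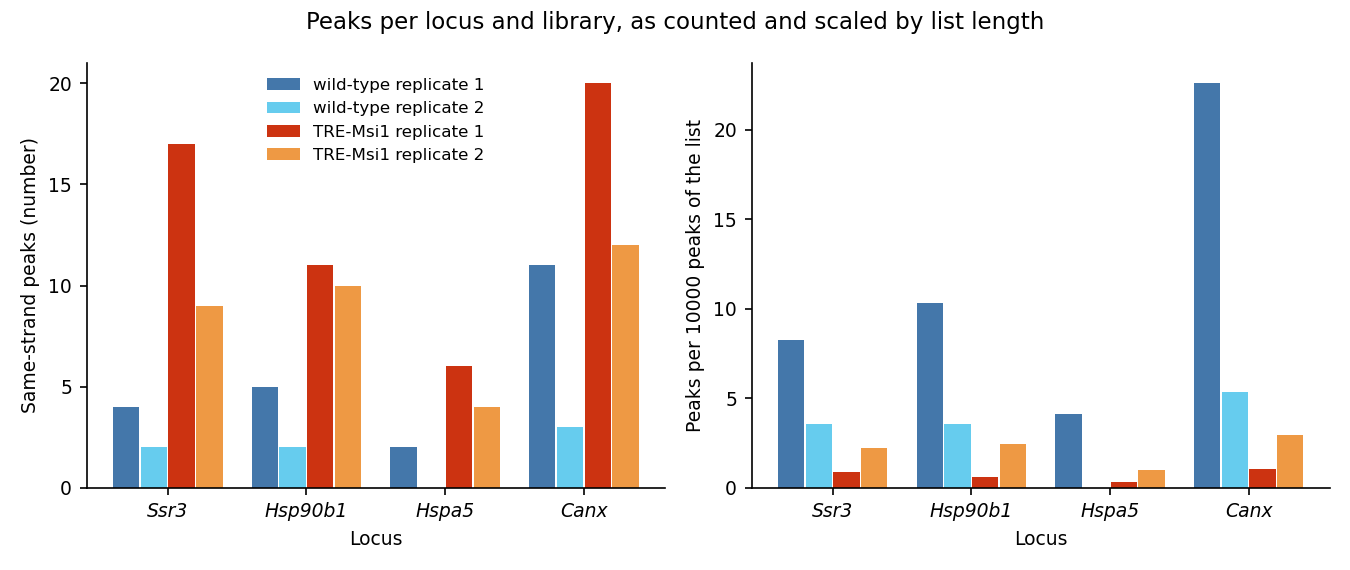
Same-strand peaks at each locus in each library, as a number (left axis panel) and per 10000 peaks of the library's list (right axis panel); each bar is 1 library. At Canx the numbers ran from 3 to 20 peaks, and the scaled values from 1.05 (TRE-Msi1 replicate 1) to 22.6 (wild-type replicate 1) per 10000.

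Ssr3, the translocon subunit, had 4 and 2 peaks in the wild-type replicates and 17 and 9 in the TRE-Msi1 replicates 1 and 2. Both TRE-Msi1 libraries lay above both wild-type libraries. Per kb of the locus this was 0.308 and 0.154 against 1.31 and 0.692, and 1.31 was the highest density of any of the 4 loci in any list. To set a scale, each strand of chromosomes 1 to 19 and X was divided into stretches of 13000 bp. Of the stretches that held a peak of the same list, 2.8% and 9.03% had at least as many as Ssr3 in wild-type replicates 1 and 2, and 0.00672% and 0.158% in TRE-Msi1 replicates 1 and 2. These shares describe a locus picked for its peaks.

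The Ssr3 peaks crowded at the 3′ end. Of the 32 peaks in the 4 lists, 27 (84.4%) lay in the 20% of the locus at its 3′ end, within 2.5 kb of its 3′ edge, and a stretch of 5.84 kb (44.9% of the locus) upstream of them held none in any list. In that 3′ part TRE-Msi1 replicate 1 had 15 peaks, whose centres lay 0.14 to 2.25 kb from the edge, and TRE-Msi1 replicate 2 had 7. The wild-type libraries had 3 and 2 there, and none of these lay farther than 1.03 kb from the edge. A single place was occupied in both wild-type libraries, chr3:65183859-65183965, with 2 peaks in replicate 1, 1 in replicate 2 and 1 in TRE-Msi1 replicate 1, where 97.26% of that list ranked lower. TRE-Msi1 replicate 2 had no peak there, its nearest being 187 bp away.

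Most Ssr3 peaks of TRE-Msi1 replicate 2 were found again in TRE-Msi1 replicate 1. By overlap of at least 1 bp, 8 of 9 were, and the remaining peak (chr3:65184546-65184620, score 39, its highest at this locus) lay 5 bp from the nearest one. The 9 rows held 8 distinct intervals, since chr3:65184835-65184909 was listed on 2 rows (scores 9 and 7). TRE-Msi1 replicate 1 had 17 peaks at this locus, and how much overlap such crowding alone gives was not tested. The next scores in that library were 29 (chr3:65184193-65184267) and 22 (chr3:65183598-65183672). In TRE-Msi1 replicate 1 the highest score at the locus, 4.7, was shared by chr3:65183883-65183922 and chr3:65185429-65185468, and 3.6 followed at chr3:65184072-65184111 and chr3:65184502-65184541. The wild-type replicate 2 peaks scored 4 (chr3:65183891-65183965) and 3 (chr3:65184498-65184572), of which 3 is the lowest score its list admits. Away from the 3′ end, chr3:65191603-65191677 was called in both TRE-Msi1 libraries and neither wild-type one. In TRE-Msi1 replicate 2 it scored 5, the lowest of that library at this locus, and 18.35% of the list ranked lower. In TRE-Msi1 replicate 1 it scored 2.6, and 79.18% ranked lower. The 5′-most place, chr3:65195182-65195286, was called in wild-type replicate 1 and both TRE-Msi1 libraries.

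Hspa5, the BiP gene, had 2 and 0 peaks in the wild-type and 6 and 4 in the TRE-Msi1 replicates 1 and 2, the fewest of the 4 loci in each library. Per kb it had 0.426 in wild-type replicate 1 and 1.28 and 0.851 in TRE-Msi1 replicates 1 and 2, close to or above Ssr3 in those libraries, since its locus is the shortest. Of 4700-bp stretches with a peak of the list, 19.4% had at least 2 in wild-type replicate 1, and 1.43% and 2.56% had at least 6 and 4 in TRE-Msi1 replicates 1 and 2. The number of Hspa5 peaks was thus less unusual within the wild-type replicate 1 list than those of the longer loci. Wild-type replicate 2 had no peak in the locus, and its nearest same-strand peak was at least 114076 bp from each Hspa5 peak of the other lists.

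Of the 12 Hspa5 peaks, 9 lay within 1 kb of the 3′ edge. Around chr2:34631632-34631794 peaks of wild-type replicate 1 and both TRE-Msi1 libraries joined into a chain. TRE-Msi1 replicate 1 had its highest score of the 4 loci here (6.1, chr2:34631632-34631671), followed at Hspa5 by 4.5 (chr2:34631458-34631497) and 3.7 (chr2:34631168-34631207). TRE-Msi1 replicate 2 listed the interval chr2:34631720-34631794 on 2 rows, with scores 95 and 38. Its other 2 peaks scored 15 (chr2:34628827-34628901) and 14 (chr2:34629655-34629729). Of the 4 TRE-Msi1 replicate 2 rows (3 distinct intervals), 0 overlapped a TRE-Msi1 replicate 1 peak directly, and they met in the chain only through the wild-type replicate 1 peak. The interval listed 2 times lay 49 bp from the peak scored 6.1 and chr2:34629655-34629729 lay 42 bp from chr2:34629771-34629810. The wild-type replicate 1 peak at chr2:34631667-34631740 overlapped a peak of each TRE-Msi1 library, and that at chr2:34631547-34631620 lay 12 bp from one of replicate 1.

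Hsp90b1, the endoplasmin gene, had 5 and 2 peaks in the wild-type and 11 and 10 in the TRE-Msi1 replicates 1 and 2. In number of peaks the TRE-Msi1 libraries agreed most closely here, at 10.5 ± 0.707 peaks (SD, n = 2), against 3.5 ± 2.12 (SD, n = 2) in wild-type libraries. Scaled by list length the TRE-Msi1 replicates 1 and 2 lay apart, at 0.58 and 2.45 per 10000 peaks. Per kb the values were 0.333 and 0.133 in wild-type and 0.733 and 0.667 in TRE-Msi1 libraries. Of 15000-bp stretches with a peak of the list, 1.18% and 9.3% had as many in the wild-type lists and 0.279% and 0.174% in the TRE-Msi1 lists.

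Unlike those of Ssr3 and Hspa5, the Hsp90b1 peaks were spread over the whole locus: 11 of 28 (39.3%) lay in the 20% at the 3′ end, 11 in the middle and 6 in the 20% at the 5′ end. In a single place the peaks of all 4 lists overlapped, chr10:86154854-86154979, 1.42 kb from the 3′ edge. The share of the list that ranked lower was 68% and 70.03% in wild-type replicates 1 and 2 (score 9 in the latter), 79.18% (score 2.6) and 98.99% (score 33) in the TRE-Msi1 replicates, in that order. The highest score of TRE-Msi1 replicate 2 at Hsp90b1 was 69, at chr10:86161029-86161103 in the middle of the locus. TRE-Msi1 replicate 1 had a peak inside it (score 3.6), while the nearest wild-type peak was 1559 bp away. Next came chr10:86157053-86157127 with 51, which overlapped the highest-scoring peak of TRE-Msi1 replicate 1 at the locus (3.9, chr10:86157115-86157154) and a peak of wild-type replicate 1. After 3.9 and 3.6, the next score of TRE-Msi1 replicate 1 was 3.2, at chr10:86154412-86154451. Wild-type replicate 2 had its other peak near the 5′ end (chr10:86167021-86167095, score 10), where the nearest peak of another list was 743 bp away.

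Canx, the calnexin gene, had 11 and 3 peaks in the wild-type and 20 and 12 in the TRE-Msi1 replicates 1 and 2. It gave the most peaks in every library, but it is also the longest locus, and per kb its values (0.338, 0.0923, 0.615 and 0.369 in the same order) were the lowest of the 4 genes in both TRE-Msi1 libraries. Of 32500-bp stretches with a peak of the list, 0.0317% and 3.27% had as many in the wild-type lists, and 0.0174% and 0.412% in the TRE-Msi1 lists. In the wild-type replicate 1 list the 0.0317% stands for 1 stretch of 3154.

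Canx peaks formed a cluster at the 3′ end and a scatter upstream. Of 46 peaks 24 (52.2%) were in the 20% at the 3′ end, and 17 within 2.5 kb of the 3′ edge. From chr11:50107995 to 50109562 wild-type replicate 1 had 6 peaks, and a peak of TRE-Msi1 replicate 1 overlapped each of them. All 6 ranked above 95% of the wild-type replicate 1 list by row order. In wild-type replicate 2 the Canx peak at chr11:50108653-50108727 had the highest score of that list at the 4 loci (31), and overlapped peaks of wild-type replicate 1 and TRE-Msi1 replicate 2 (score 30). The peak of TRE-Msi1 replicate 1 nearest to it, at chr11:50108743-50108782 (score 5.5), was 16 bp away. Upstream, chr11:50121751-50121850 was the other place where the peaks of all 4 lists overlapped, 14.8 kb from the 3′ edge, with scores of 10, 4.5 and 19 in wild-type replicate 2 and TRE-Msi1 replicates 1 and 2.

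The highest score of TRE-Msi1 replicate 2 at the 4 loci stood alone. It was 142 at chr11:50110709-50110783 in Canx, 3.75 kb from the 3′ edge, with 99.94% of that list below it. The nearest peak of any other library was 825 bp away, in wild-type replicate 2, and the nearest of TRE-Msi1 replicate 1 was 1011 bp away. Its next scores at Canx were 60 (chr11:50109186-50109260), found in wild-type replicate 1 and TRE-Msi1 replicate 1, and 40 (chr11:50122274-50122348), found in TRE-Msi1 replicate 1. In TRE-Msi1 replicate 1 the highest Canx scores were 6 (chr11:50109084-50109123), 5.5 (above) and 5.2 (chr11:50117929-50117968), and the peaks scored 6 and 5.2 overlapped no peak of another list. The peak scored 5.2 lay 20 bp from a wild-type replicate 1 peak at chr11:50117836-50117909. The remaining wild-type replicate 2 peak (chr11:50111608-50111682, score 7) was 825 bp or more from any other library's peak.

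**Figure D2:**
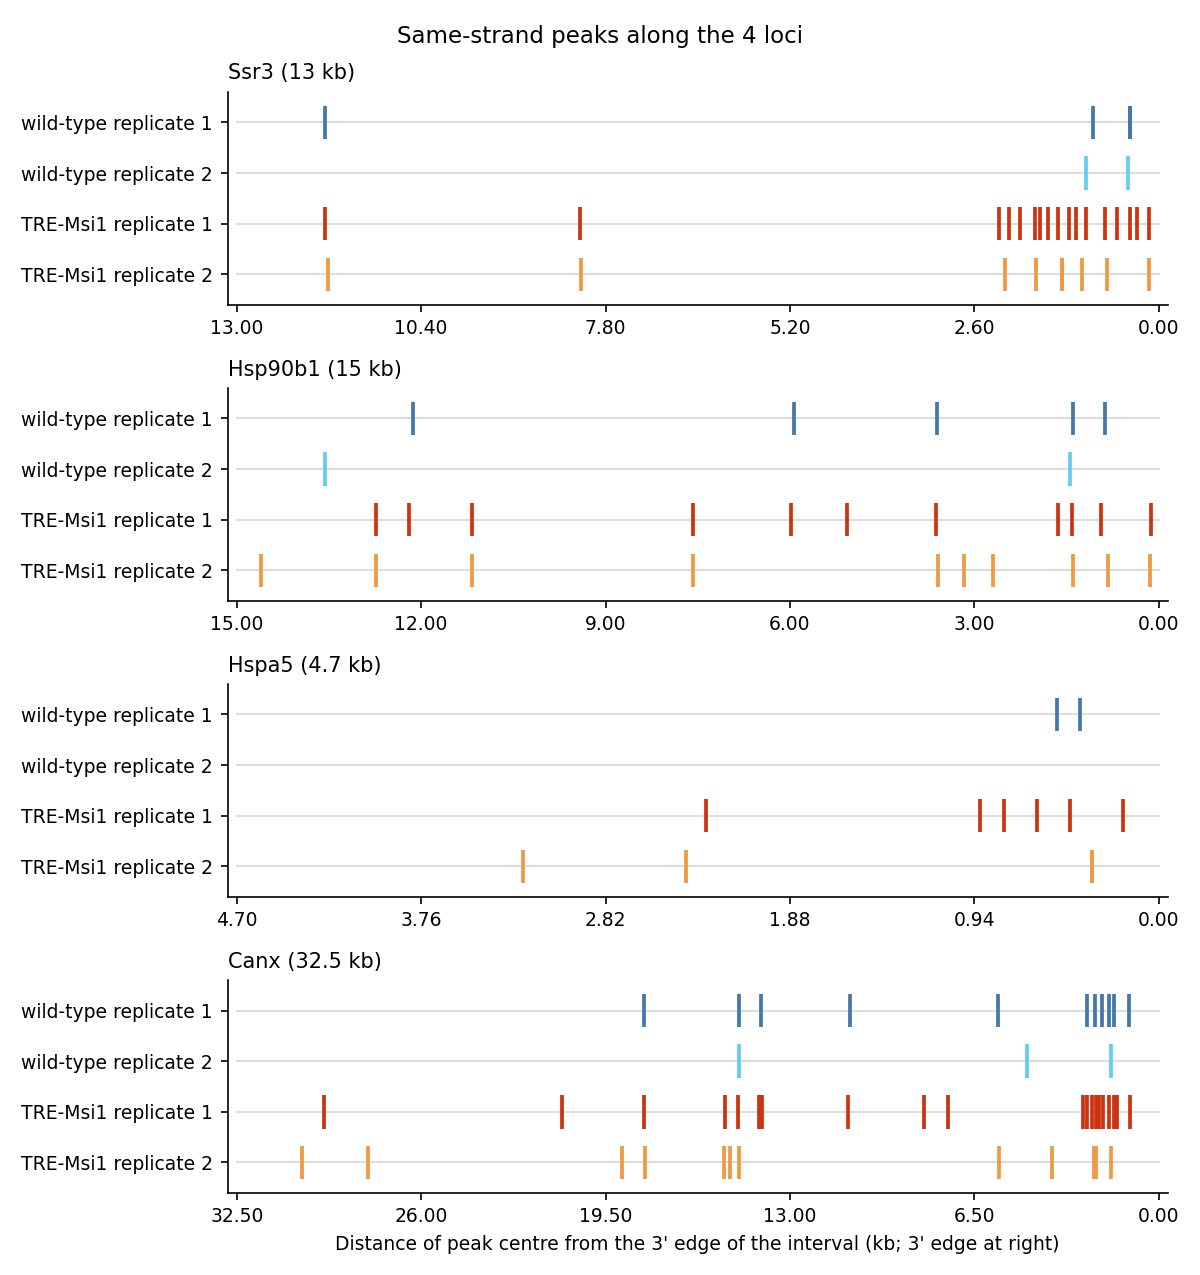
Centres of the same-strand peaks along each locus, by distance from the 3′ edge of the interval in kb (3′ edge at the right), with 1 row per library; the intervals are those of the text and not annotated gene ends. In Ssr3 27 of 32 peaks lie in the 20% at the 3′ end, whereas in Hsp90b1 11 of 28 do.

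Over the 4 loci, 71 of 118 peaks (60.2%) were in the 20% of the locus at the 3′ end and 12 in the 20% at the 5′ end. The share at the 3′ end was 63.6% and 71.4% in the wild-type replicates, and 63% and 51.4% in the TRE-Msi1 replicates. Both TRE-Msi1 values were below both wild-type values, the closest being 63% and 63.6%, and no test was made. The order did not hold at Ssr3, with 75% in wild-type replicate 1 against 88.2% and 77.8% in the TRE-Msi1 replicates. At Hsp90b1 wild-type replicate 1 and TRE-Msi1 replicate 2 both had 40%. It held at Canx, and at Hspa5 with wild-type replicate 1 alone. Which of these positions are exons, introns or untranslated regions was not determined, since no mm9 annotation was used. For the same reason the UAG core of the Musashi motif could not be searched in the peaks, and the related genes planned for comparison (such as Calr, Pdia3, Sec61a1 and Ssr1) were not located.

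Places were next defined as chains of overlapping same-strand peaks over the 4 lists. There were 69, of which 17 were in Ssr3, 9 in Hspa5, 16 in Hsp90b1 and 27 in Canx. A single list accounted for 39 of them, 24 and 10 in TRE-Msi1 replicates 1 and 2, and 3 and 2 in wild-type replicates 1 and 2. Both TRE-Msi1 lists met in 20, and in 11 of those no wild-type peak joined the chain: 6 in Ssr3, 4 in Hsp90b1, 1 in Canx and 0 in Hspa5. Wild-type and TRE-Msi1 peaks met in 19, of which 10 were in Canx, and only 5 places were wild-type alone. The chains with peaks of all 4 lists numbered 3, the places at Hsp90b1 and Canx given above and chr11:50108633-50108790 at the 3′ cluster of Canx, where not every pair of peaks overlapped.

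Peaks in these loci were found again in other libraries more often than the peaks of the lists at large, taken without regard to rank. Of the 22 wild-type replicate 1 peaks 19 (86.4%, 95% Wilson interval 66.7 to 95.3%) overlapped a peak of at least 1 TRE-Msi1 list, against 58.4% of that whole list. Of the 7 wild-type replicate 2 peaks 5 did (71.4%, 35.9 to 91.8%), against 20.2%. Of the 35 TRE-Msi1 replicate 2 peaks 19 (54.3%, 38.2 to 69.5%) overlapped a peak of TRE-Msi1 replicate 1, against 5.67%. The last share was uneven among the genes, at 8 of 9 in Ssr3, 6 of 10 in Hsp90b1, 5 of 12 in Canx and 0 of 4 in Hspa5. These intervals take each peak as independent and hold counting error alone, and since the genes were chosen with these peaks known the contrast with the lists is a description. With identical intervals counted once, 18 of 33 TRE-Msi1 replicate 2 peaks were shared with TRE-Msi1 replicate 1. With a reciprocal overlap of 50%, 9 of the 35 were. The whole lists were not matched for the crowding of peaks in these loci, and its part in the shares was not tested.

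The share found again also differed with the library searched. TRE-Msi1 replicate 1 offered more peaks to meet in the loci, 54 against 35 in TRE-Msi1 replicate 2. The part of this difference in the shares was not tested. Of the wild-type replicate 1 peaks, 17 of 22 (77.3%) overlapped TRE-Msi1 replicate 1, and 9 (40.9%) overlapped TRE-Msi1 replicate 2, against 43.1% and 30.8% over the whole list. Within 100 bp, 21 of the 22 had a TRE-Msi1 replicate 1 neighbour, against 66.2% of the list, and 13 had one in TRE-Msi1 replicate 2, against 43.1%. The wild-type replicates shared 5 of the 22 peaks of replicate 1, against 10.6% of its list, and 4 of the 7 of replicate 2, against 9.38%. Read in the other direction, 13 of the 35 TRE-Msi1 replicate 2 peaks (37.1%) and 17 of the 54 TRE-Msi1 replicate 1 peaks (31.5%) overlapped a wild-type peak, against 5.19% and 1.24% of these lists. High-ranked peaks are shared more often in any case. Among peaks ranked above 90% of the TRE-Msi1 replicate 2 list, 20.8% were found in TRE-Msi1 replicate 1, and 14 of the 25 such peaks in the loci were. Of the 14 wild-type replicate 1 peaks of the loci in the top 10% of their list, 11 overlapped a peak of either TRE-Msi1 list, against 83.5% of that top 10%. Taken singly, 10 of the 14 overlapped TRE-Msi1 replicate 1, against 60.5%, and 4 of the 14 overlapped TRE-Msi1 replicate 2, against 57.2%. In wild-type replicate 2, 3 of the 14 were found again, against 37.2%. On these 14 peaks the loci were thus below the top of the list for TRE-Msi1 replicate 2 and for wild-type replicate 2. For TRE-Msi1 replicate 1 they were above it by a margin that few peaks could change, and no interval was computed.

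**Figure D3:**
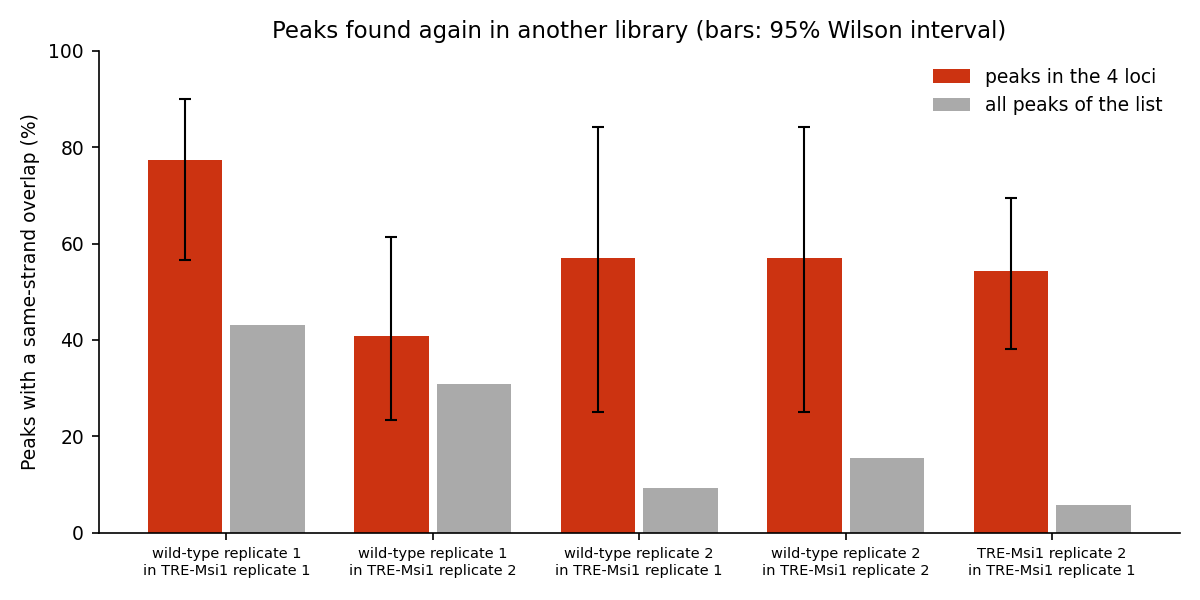
Share of peaks (%) that overlapped a same-strand peak of a second library, for the peaks in the 4 loci and for all peaks of the list, with 95% Wilson intervals on the former; each pair of bars names the list read and the list searched. Read against TRE-Msi1 replicate 1, the share was 77.3% against 43.1% for wild-type replicate 1 and 54.3% against 5.67% for TRE-Msi1 replicate 2.

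Ranked within their own lists, the peaks stood high in 3 libraries. The authors' score gave the rank, except in wild-type replicate 1. In wild-type replicate 1, where all scores are 0 and the order of rows was taken as the rank, which no source states, the median peak of the 4 loci ranked above 94.3% of the list, and 14 of 22 were in the top 10%. In TRE-Msi1 replicate 2 the median was 97.2%, 25 of 35 (71.4%) were in the top 10% and 10 in the top 1%. In TRE-Msi1 replicate 1 the median was 87.7%, with 21 of 54 (38.9%) in the top 10% and 0 in the top 1%. Wild-type replicate 2 stood lower, with a median of 70%, 1 of 7 in its top 10% and 2 below the middle of the list, both in Ssr3. By gene, the medians in TRE-Msi1 replicate 2 were 97.9% for Canx, 97.3% for Hsp90b1, 96.1% for Hspa5 and 93% for Ssr3. Ssr3 thus had the lowest median rank of the 4 genes in that library, whereas in TRE-Msi1 replicate 1 the lowest median was that of Hsp90b1 (79.2%), below Ssr3 (87.7%), Hspa5 (90.5%) and Canx (91.1%).

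**Figure D4:**
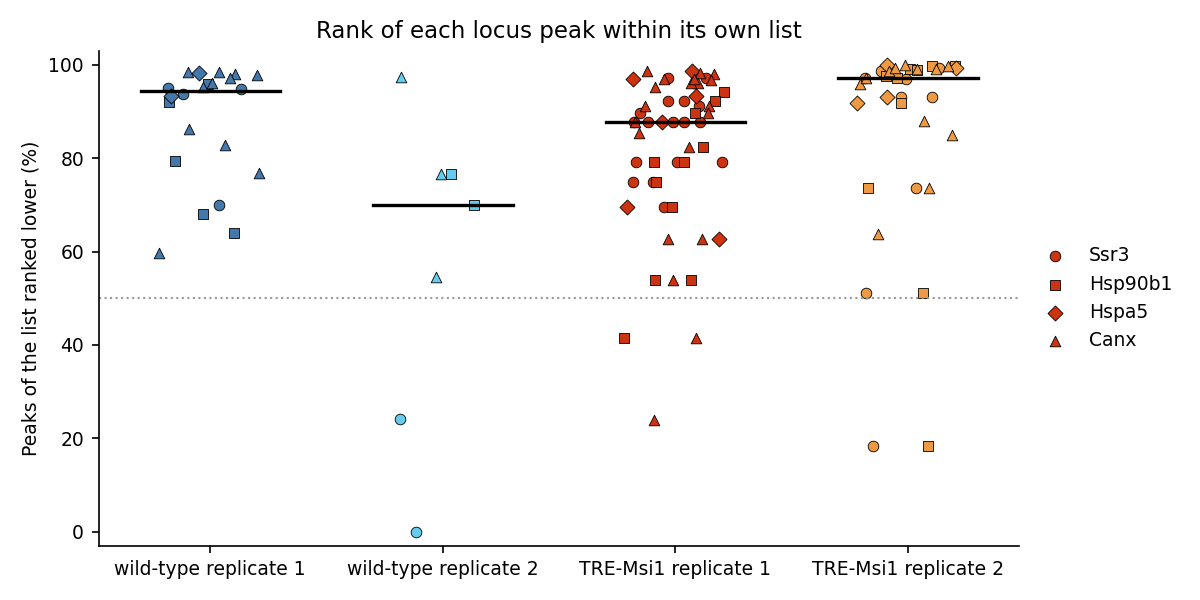
Rank of each peak of the 4 loci within its own list, as the percentage of the list's peaks ranked lower; symbols mark the genes, the bar is the median of the library and the dotted line the middle of the list. The medians are 94.3% and 70% in the wild-type replicates, and 87.7% and 97.2% in the TRE-Msi1 replicates.

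The opposite strand of the same intervals served as the background. It held 0 peaks in wild-type replicates 1 and 2 and in TRE-Msi1 replicate 2. A count of 0 was taken to allow up to 3, or 13.6%, 42.9% and 8.57% of the peaks on either strand. This approximation is rough where peaks are few. The Wilson intervals of the same-strand share began at 85.1%, 64.6% and 90.1% in these libraries. TRE-Msi1 replicate 1 had 2 opposite-strand peaks, both in Canx, so 54 of its 56 peaks (96.4%, Wilson interval 87.9 to 99%) were on the strand of the genes. For Ssr3, Hsp90b1 and Canx that is the minus strand, which held the minority of that library's list. At the edges of the intervals, no same-strand peak of any list lay within 2000 bp outside. The nearest were 2.02 kb beyond the 5′ edge and 4.61 kb beyond the 3′ edge of Hspa5, both in TRE-Msi1 replicate 1, and 6.51 kb beyond the 3′ edge of Ssr3 in TRE-Msi1 replicate 2. Just inside, the closest peak centres to the 3′ edge were at 0.14 kb in Ssr3, 0.18 kb in Hspa5, 0.12 kb in Hsp90b1 and 1.02 kb in Canx.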

How the data were processed

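The authors deposited 1 peak list per library, so peaks were listed per sample and not on pooled samples. Per the submitters' processing notes, Bowtie, HOMER and build mm9 were used, with versions and settings not given in the sources used here. Each row has coordinates, a strand and the deposited score, whose unit is not stated. Scores ranked peaks within a list only. In wild-type replicate 1 row order was taken as the rank, an assumption.

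Peaks were assigned to a locus by at least 1 bp of same-strand overlap, and sharing used the same rule. Starts were converted to 1-based. Distances run from the peak centre to the 3′ edge of the interval. The protocols name 2 mice per group. Groups came from sample titles. The members and lists were chosen with earlier results of these data known. Named peaks were those in all 4 lists or both TRE-Msi1 lists and the 3 highest-scoring per locus and scored list, not all of them printed. The rule named every wild-type peak only if 20 or fewer (there were 29), so other wild-type peaks and neighbours printed were chosen after their values were seen. Simulated lists with known overlaps served to test the code. Planned counts for related genes and epithelial marker genes need an mm9 annotation and were not made. Software was Python 3.11.15 with pandas 2.3.3, numpy 2.4.6, matplotlib 3.10.9 and scipy 1.17.1.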

Additional observations from a re-analysis of the deposited data

Results flagged for a closer look

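TRE-Msi1 replicate 1 had 2 peaks on the strand opposite Canx, at chr11:50129896-50129935 (score 1.9) and chr11:50132024-50132063 (score 1.8), while both wild-type libraries had 0 opposite-strand peaks in the 4 loci. They were flagged only because their number exceeded the 0 of the wild-type libraries, whose lists are far shorter. Strand stretches of 32500 bp that held a peak of TRE-Msi1 replicate 1 had a median of 2 peaks, so 2 is not unusual for that list. The 2 opposite-strand peaks ranked above 53.94% and 41.41% of their list, of which 70.8% is on the plus strand. The part of that strand balance in them was not tested.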

How the results depend on the processing

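Of 143 recomputed values of 13 results, 123 stayed within 1.5 times the reported count, the replicate SD or the Wilson interval, 19 moved and 1 reversed. Cutting all lists to 4863 peaks reversed the log2 difference in peak number (-0.15 against 1.76) and moved the difference per 10000 to -0.15. It also left 4 peaks in TRE-Msi1 replicate 1, all on the strand of the genes (100%), 0 TRE-Msi1 replicate 2 peaks shared with replicate 1, and 10 and 3 wild-type peaks (replicates 1 and 2) shared with a TRE-Msi1 list. Fewer peaks enter these cut lists by construction. The reversal, the 4 peaks and the 10 and 3 shared wild-type peaks also rest on how tied scores were ordered at the cut. Ordering ties by chromosome name left out the Ssr3 peaks of TRE-Msi1 replicate 1 scored 4.7. The top 25% of each list left 4 wild-type replicate 2 peaks, 3 of them shared, and 100% of TRE-Msi1 replicate 1 peaks on the strand of the genes. With a reciprocal overlap of 50%, 9 TRE-Msi1 replicate 2 peaks and 3 wild-type replicate 2 peaks were shared. Without Canx the counts were 11 and 4 in wild-type and 34 and 23 in TRE-Msi1 replicates 1 and 2, with 9 and 3 wild-type peaks shared and 100% of TRE-Msi1 replicate 1 peaks on the strand of the genes. Without Ssr3, 3 wild-type replicate 2 peaks were shared. Leaving out each library gave log2 differences of 0.97 to 2.55 in number and -3.21 to -1.43 per 10000. No paired analysis was possible because these results come from no test, the loci having been chosen by their peaks, and the labels do not say that the replicate numbers pair mice. Identical intervals counted once left 33 TRE-Msi1 replicate 2 peaks. Read depth is unknown, and counts of 2 to 20 peaks per gene limit every share.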
